A study of Homo sapiens with 21 samples.

Results

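Catecholamines are the family of dopamine, noradrenaline and adrenaline, and 9 genes of their synthesis, transport and breakdown were followed here: TH, DDC, DBH, GCH1, SLC18A1, SLC18A2, SLC6A2, MAOA and MAOB. They were chosen by name, with earlier results of these data known. All 9 were on the array and none was lost to a filter, since no filter on low values was used, and they are 9 of the 18132 genes tested. SH-SY5Y is a human neuroblastoma line of sympathetic, noradrenergic origin. Before treatment all cultures had 3 to 4 days of differentiation, in 10 µM retinoic acid together with the neurotrophin BDNF at 50 ng/mL, and the exposure lasted 72 h. The 7 groups, with 3 arrays each, were APP-V717F mutated cells with AG494 (APP_AG494), with NOSCA (APP_NOSCA) and with the vehicle DMSO (APP_DMSO), and wild-type cells with PALBO (WT_PALBO), AG494 (WT_AG494), NOSCA (WT_NOSCA) and DMSO (WT_DMSO). Every culture, treated or not, held 0.1% DMSO. AG494 is known as an inhibitor of the EGF receptor kinase. NOSCA and PALBO are named as in the labels, which state no dose of any compound. There is no APP group with PALBO in what follows. The labels do not say whether the mutated cells are 1 clone, how the mutation was introduced or how many alleles carry it, so that the mutation and other differences between the 2 cell stocks cannot be told apart.

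In noradrenergic cells, tyrosine hydroxylase (TH) turns tyrosine into L-DOPA with tetrahydrobiopterin as its cofactor, aromatic amino acid decarboxylase (DDC) turns that into dopamine, and dopamine β-hydroxylase (DBH) turns dopamine into noradrenaline inside vesicles. GTP cyclohydrolase 1 (GCH1) starts the synthesis of the cofactor. The vesicular monoamine transporters SLC18A1 and SLC18A2, also called VMAT1 and VMAT2, fill the vesicles, and the noradrenaline transporter SLC6A2 takes released transmitter back up. In the mitochondrial outer membrane, the monoamine oxidases MAOA and MAOB break down amines left in the cytosol.

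Values are log2 intensities of RNA, so that a difference of 1 is a doubling, and each gene is represented by its probe set with the highest mean over the 21 arrays. A level was never compared between genes, because probe sets differ in brightness. Differences were tested with limma on all 18132 genes, and a gene was called at a Benjamini-Hochberg adjusted p under 0.05. The array titles number the samples from 1 to 8, from 11 to 18 and from 21 to 28, with 1 array of every group in each stretch, called run 1, run 2 and run 3 here. Values of a group are listed in that order. The series' design text speaks of 3 independent experiments and does not tie them to the runs. Arrays of the same run deviated together, so that a fit with the run as a block is given where it changed a call. The RNA is that of a whole culture, in which fewer cells of a type and less RNA per cell cannot be told apart.

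Promoter sequences are shown for MAOA, MAOB and SLC18A2, since the oxidase genes were lower in APP cells and the transporter, with the run as a block, was higher. MAOA and MAOB arose by duplication and lie next to each other on chromosome X in opposite orientation. RefSeq windows on GRCh38.p14, from 250 bases before to 50 bases after a listed start, were found for 5 of the 9 genes. Capitals mark GC boxes (GGGCGG on either strand, overlaps counted) and, in SLC18A2, the cAMP response element TGACGTCA. The MAOA window is chrX:43656049-43656348 on the plus strand, the MAOB window chrX:43882401-43882700 on the minus strand and the SLC18A2 window chr10:117240864-117241163 on the plus strand.
MAOA: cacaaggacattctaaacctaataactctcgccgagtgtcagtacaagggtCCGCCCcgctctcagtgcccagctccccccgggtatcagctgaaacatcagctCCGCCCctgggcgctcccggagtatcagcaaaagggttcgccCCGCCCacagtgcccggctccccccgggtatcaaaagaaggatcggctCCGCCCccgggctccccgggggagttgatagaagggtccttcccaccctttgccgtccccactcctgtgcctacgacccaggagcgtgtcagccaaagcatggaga
MAOB: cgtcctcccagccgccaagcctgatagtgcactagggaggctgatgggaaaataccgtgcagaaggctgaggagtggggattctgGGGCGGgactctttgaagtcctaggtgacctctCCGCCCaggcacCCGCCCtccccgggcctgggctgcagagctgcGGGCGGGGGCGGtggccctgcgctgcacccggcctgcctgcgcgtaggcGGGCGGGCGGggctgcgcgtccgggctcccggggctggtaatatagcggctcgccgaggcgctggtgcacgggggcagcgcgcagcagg
SLC18A2: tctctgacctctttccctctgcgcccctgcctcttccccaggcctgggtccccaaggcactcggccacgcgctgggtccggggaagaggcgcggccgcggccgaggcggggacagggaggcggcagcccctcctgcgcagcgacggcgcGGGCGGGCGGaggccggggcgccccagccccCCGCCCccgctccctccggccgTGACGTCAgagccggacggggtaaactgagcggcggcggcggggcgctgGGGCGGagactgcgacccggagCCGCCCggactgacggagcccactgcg
The MAOA window held 4 GC boxes, the MAOB window 7 and the SLC18A2 window 5, and 45% of 35116 RefSeq promoters of this length hold at least 1. The palindromic cAMP response element occurred in the SLC18A2 window and in 1.85% of all promoters. The EGR motif GCGNGGGCG, searched on both strands and free to overlap a GC box, had 1 match in the MAOB window, 2 in the SLC18A2 window and none in the MAOA window, against 9.43% of all promoters with a match. The DBH window held 1 GC box, and the DDC windows held none of the 3 motifs. A match describes these letters and is not evidence of binding, and no measurement here ties a difference in RNA to a promoter.

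The label of the line was set against marker genes. This ranks levels across genes, which differences in brightness between probe sets also affect, so that the counts are a rough check. Of 9 noradrenergic markers 7 were measured, and 7 of 7 were above the median gene of the arrays. So were 0 of 7 midbrain dopaminergic, 0 of 5 immune, 1 of 3 cholinergic, 1 of 3 serotonergic, 1 of 3 measured glial and 3 of 6 mesenchymal markers. APP itself fell by 0.28 in APP_DMSO against WT_DMSO (SE 0.08, adjusted p = 0.041, limma), which does not bear on whether the mutation is present. Array medians ran from 7.879 to 8.031.

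**Figure D1:**
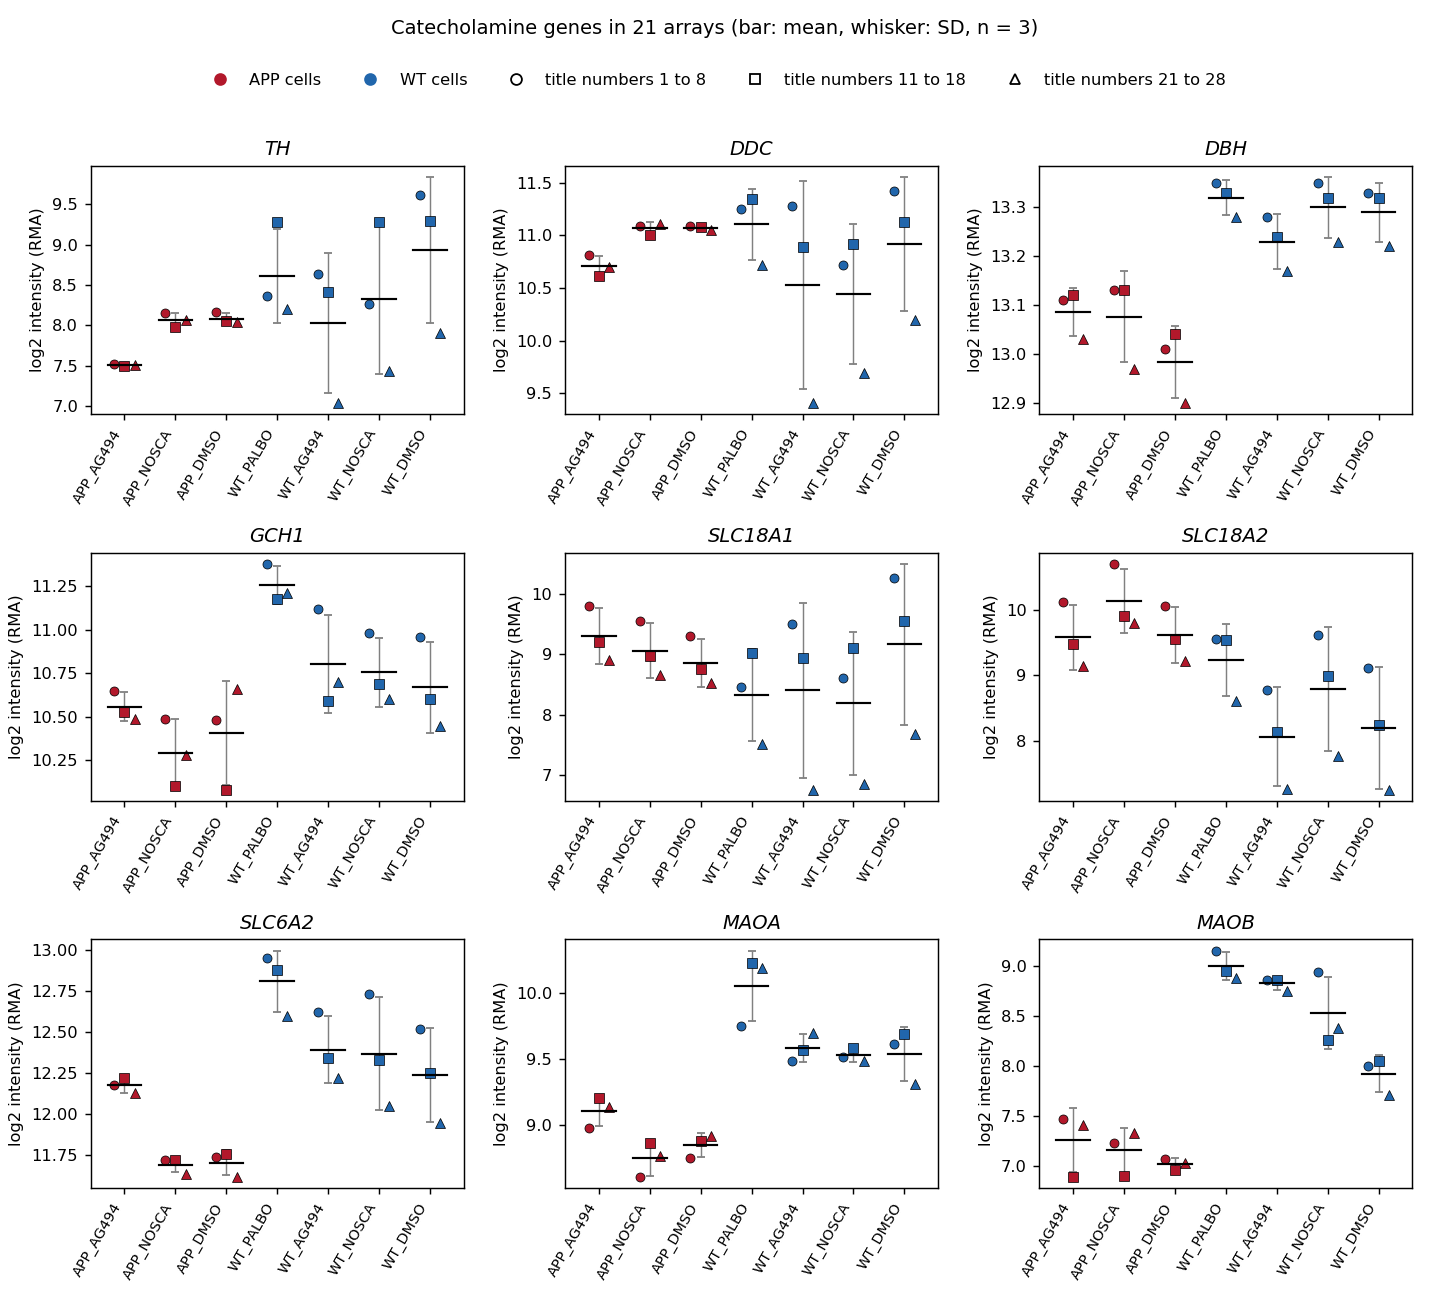
Log2 RMA intensity (y axes, a scale of its own in each panel) of the 9 genes in 21 arrays, by group (x axes), with APP cells in red and wild-type cells in blue. Symbols mark the run of title numbers, bars the mean and whiskers the SD over 3 arrays. For MAOB, MAOA and DBH all red points lie below all blue points, and MAOB averages 7.02 in APP_DMSO and 8.99 in WT_PALBO.

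Under vehicle, the genes of reuptake and breakdown and the last enzyme of noradrenaline synthesis were lower in APP cells. Of the 9 genes, 4 were called in APP_DMSO against WT_DMSO, all of them lower (MAOB, MAOA, SLC6A2 and DBH), where 9.25% of all genes were called and 4.05% were called lower. The median difference of the 9 genes was -0.31, beside 0.0221 over all genes. With the run as a block, 5 were called, because SLC18A2 joined as higher, where 17.4% of all genes were called. Arrays of 3 against 3 did not overlap for 22.1% of all genes here, for 23.4% under AG494 and for 23.6% under NOSCA.

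MAOB, the oxidase that prefers phenylethylamine and, together with MAOA, degrades dopamine, had log2 intensities of 7.07, 6.96 and 7.03 in APP_DMSO, against 8.0, 8.05 and 7.71 in WT_DMSO. The lowest WT_DMSO array stood well above the highest APP_DMSO array. The difference was -0.91 (SE 0.17, adjusted p = 0.0012, limma), which is 1.87-fold lower in APP cells, and it was negative in 3 of 3 runs, at -0.94, -1.09 and -0.69.

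MAOA, which prefers noradrenaline and serotonin, had 8.75, 8.88 and 8.92 in APP_DMSO, against 9.62, 9.69 and 9.31 in WT_DMSO. The groups did not overlap, and WT_DMSO of run 3 was the one nearest to the APP cells. The difference was -0.69 (SE 0.12, adjusted p = 0.00075, limma), or 1.61-fold lower.

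SLC6A2, the reuptake transporter, had 11.74, 11.76 and 11.62 in APP_DMSO, against 12.52, 12.25 and 11.95 in WT_DMSO. The APP arrays lay close together below wild-type arrays that were spread out. The difference was -0.54 (SE 0.15, adjusted p = 0.03, limma), or 1.45-fold lower. This call was lost when any of 5 of the 6 arrays was left out. Without WT_DMSO of run 1 the difference was -0.40 (adjusted p = 0.16), and without WT_DMSO of run 2 or APP_DMSO of run 1, 2 or 3 it lay between -0.56 and -0.49 (adjusted p between 0.061 and 0.1).

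DBH, the noradrenaline-forming enzyme, had 13.01, 13.04 and 12.9 in APP_DMSO, against 13.33, 13.32 and 13.22 in WT_DMSO. The difference was small but the arrays of each group agreed closely, and the groups did not overlap. It came to -0.31 (SE 0.07, adjusted p = 0.0046, limma), or 1.24-fold lower, with -0.32, -0.28 and -0.33 in the 3 runs.

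SLC18A2, the vesicular transporter of central and sympathetic neurons, went the other way, with 10.06, 9.55 and 9.21 in APP_DMSO against 9.11, 8.24 and 7.25 in WT_DMSO. Both groups were highest in run 1 and lowest in run 3, and the APP array was higher within every run, by 0.95, 1.3 and 1.96. The difference of 1.41 (SE 0.49, adjusted p = 0.089, limma) was not called, while with the run as a block it was (adjusted p = 6.6e-05). A second probe set of SLC18A2 gave 0.54 (SE 0.24, adjusted p = 0.21, limma over all probe sets).

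The remaining genes were not called between APP_DMSO and WT_DMSO. TH, the rate-limiting enzyme, had 8.16, 8.05 and 8.04 in APP_DMSO, against 9.61, 9.29 and 7.91 in WT_DMSO. The difference within runs was -1.44 in run 1, -1.24 in run 2 and 0.14 in run 3. Over the 3 runs it was -0.85 (SE 0.45, adjusted p = 0.32, limma). With title numbers 1 to 18 only, an alternative chosen after seeing the data, it was -1.34 (adjusted p = 0.027), where 6.97% of all genes were called. GCH1 gave -0.26 (SE 0.16, adjusted p = 0.42), SLC18A1 gave -0.31 (SE 0.69, adjusted p = 0.88) and DDC gave 0.15 (SE 0.38, adjusted p = 0.89) in the same fit.

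**Figure D2:**
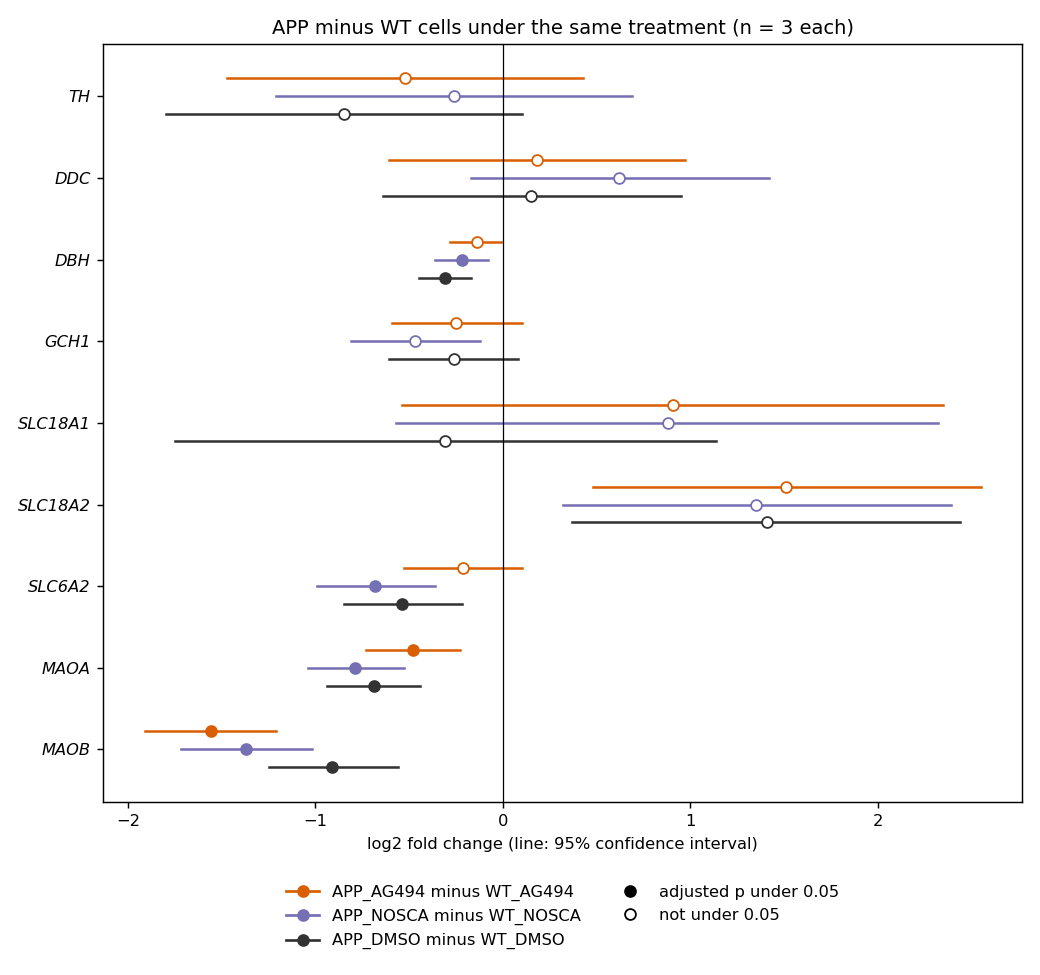
Log2 fold change of APP over wild-type cells (x axis) for the 9 genes (y axis) under AG494, NOSCA and DMSO, 3 arrays against 3, with 95% confidence intervals as lines. Filled points are called at an adjusted p under 0.05. MAOB and MAOA are filled in all 3 comparisons, at -1.56, -1.37 and -0.91 for MAOB, and SLC18A2 lies between 1.35 and 1.51 with no filled point.

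The genotype difference was then read under each compound that both lines received. The 3 comparisons use different arrays. Under AG494, 2 of the 9 genes were called, both lower, MAOB and MAOA, where 9.02% of all genes were called and 4.92% were called lower. The median of the 9 genes was -0.21, beside 0.0241 over all genes. With the run as a block 4 were called, where 16.9% of all genes were. Under NOSCA, 4 were called, all lower (MAOB, MAOA, SLC6A2 and DBH), where 7.2% of all genes were called and 3.65% were called lower. The median of the 9 genes was -0.26, beside 0.0182 over all genes, and with the block 6 were called, where 14.8% of all genes were.

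MAOB had 7.47, 6.89 and 7.41 in APP_AG494, against 8.86, 8.86 and 8.75 in WT_AG494. The difference was -1.56 (SE 0.17, adjusted p = 3.1e-06, limma), or 2.96-fold lower in APP cells, beside -0.91 under vehicle. Under NOSCA it had 7.23, 6.9 and 7.33 in APP cells, against 8.94, 8.26 and 8.38 in wild-type cells. That difference was -1.37 (SE 0.17, adjusted p = 1.9e-05, limma), or 2.58-fold lower. The change of this gap with the compound is the interaction, given with the responses of the APP cells.

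MAOA had 8.98, 9.21 and 9.14 in APP_AG494, against 9.49, 9.57 and 9.7 in WT_AG494. The groups did not overlap, and the difference was -0.48 (SE 0.12, adjusted p = 0.014, limma). It was not called without APP_AG494 of run 1 (-0.41, adjusted p = 0.072) or without WT_AG494 of run 3 (-0.42, adjusted p = 0.065). Under NOSCA, MAOA had 8.61, 8.87 and 8.77 in APP cells, against 9.52, 9.59 and 9.49 in wild-type cells, a difference of -0.79 (SE 0.12, adjusted p = 0.00022, limma).

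SLC6A2 had 11.72, 11.72 and 11.64 in APP_NOSCA, against 12.73, 12.33 and 12.05 in WT_NOSCA. The difference was -0.68 (SE 0.15, adjusted p = 0.008, limma), and without WT_NOSCA of run 1 it was -0.50 (adjusted p = 0.053). Under AG494 the transporter had 12.18, 12.22 and 12.13 in APP cells, against 12.62, 12.34 and 12.22 in wild-type cells. Here the groups met at 12.22, and the difference of -0.21 (SE 0.15, adjusted p = 0.52, limma) was not called.

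DBH had 13.13, 13.13 and 12.97 in APP_NOSCA, against 13.35, 13.32 and 13.23 in WT_NOSCA. The difference was -0.22 (SE 0.07, adjusted p = 0.049, limma). The call was lost without any 1 of 5 arrays, namely WT_NOSCA of run 1 or 2 and APP_NOSCA of run 1, 2 or 3, with -0.25 to -0.17 and adjusted p of 0.062 to 0.23. Under AG494 DBH had 13.11, 13.12 and 13.03 in APP cells, against 13.28, 13.24 and 13.17 in wild-type cells. That difference of -0.14 (SE 0.07, adjusted p = 0.23, limma) was called with the run as a block (adjusted p = 0.031).

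SLC18A2 had 10.12, 9.47 and 9.14 in APP_AG494, against 8.78, 8.14 and 7.27 in WT_AG494. The APP array was the higher one in every run, by 1.34, 1.33 and 1.87. The mean difference of 1.51 (SE 0.49, adjusted p = 0.065, limma) was called with the block (adjusted p = 3.2e-05). Under NOSCA it had 10.7, 9.91 and 9.8 in APP cells, against 9.61, 8.99 and 7.76 in wild-type cells. The difference there was 1.35 (SE 0.49, adjusted p = 0.12, limma, and 0.00011 with the block).

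GCH1 had 10.49, 10.1 and 10.28 in APP_NOSCA, against 10.98, 10.69 and 10.6 in WT_NOSCA. The groups did not overlap, and the difference of -0.47 (SE 0.16, adjusted p = 0.1, limma) was called with the block (adjusted p = 0.0082). TH, DDC and SLC18A1 were called under neither compound, with or without the block.

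Over the whole set of arrays, the 9 APP arrays and the 12 wild-type arrays did not overlap for 3 of the 9 genes, all lower in APP cells, where 3.1% of all genes did not overlap and 1.52% were lower without overlap. MAOB ranged from 6.89 to 7.47 in APP arrays, with a median of 7.07, and from 7.71 to 9.15 in wild-type arrays, with a median of 8.8. MAOA ranged from 8.61 to 9.21 in APP arrays and from 9.31 to 10.23 in wild-type arrays. DBH ranged from 12.9 to 13.13 in APP arrays and from 13.17 to 13.35 in wild-type arrays. These ranges pool treatments and carry no test.

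Other probe sets of the same genes bear on these values, fitted over all probe sets. The 4 probe sets of MAOA gave -0.79 to -0.34 for APP_DMSO against WT_DMSO, and 3 of the 4 were called. The 3 of SLC6A2 gave -0.72 to -0.54, and 2 were called. The second MAOB probe set was dimmer and gave smaller differences, -0.52 (adjusted p = 0.0013, limma) under AG494, -0.44 (adjusted p = 0.0071) under NOSCA and -0.21 (adjusted p = 0.23) under vehicle. Under AG494, 1 of the other MAOA probe sets was not called, at -0.38 (adjusted p = 0.12, limma). Under NOSCA the same probe set was called, at -0.67 (adjusted p = 0.0053). DBH and SLC18A1 had 1 probe set each.

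In wild-type cells PALBO raised genes of breakdown, reuptake and cofactor synthesis. Of the 9 genes, 4 were called in WT_PALBO against WT_DMSO, all higher (MAOB, SLC6A2, GCH1 and MAOA), where 6.98% of all genes were called and 3.11% were called higher. The median of the 9 genes was 0.52, beside 0.00374 over all genes. With the run as a block 5 were called, with SLC18A2 added, where 15.1% of all genes were called. MAOB, SLC6A2 and MAOA are also among the genes that were lower in APP_DMSO. The 2 comparisons share the WT_DMSO arrays, so that their opposite signs are not independent.

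MAOB had 9.15, 8.95 and 8.88 in WT_PALBO, against 8.0, 8.05 and 7.71 in WT_DMSO. Every PALBO array was above every vehicle array, and the difference was 1.07 (SE 0.17, adjusted p = 5e-04, limma), or 2.1-fold higher. This call was kept without any 1 of the 6 arrays, at 0.96 to 1.13.

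SLC6A2 had 12.95, 12.88 and 12.6 in WT_PALBO, against 12.52, 12.25 and 11.95 in WT_DMSO. The difference was 0.57 (SE 0.15, adjusted p = 0.026, limma). GCH1 had 11.38, 11.18 and 11.21 in WT_PALBO, against 10.96, 10.6 and 10.45 in WT_DMSO. The difference was 0.59 (SE 0.16, adjusted p = 0.034, limma), with 1.5-fold more RNA for the enzyme that starts cofactor synthesis. In both genes the groups did not overlap, as in 21.2% of all genes.

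MAOA had 9.75, 10.23 and 10.19 in WT_PALBO, against 9.62, 9.69 and 9.31 in WT_DMSO. The rise was uneven, with 0.13 in run 1, 0.54 in run 2 and 0.88 in run 3. The mean difference was 0.52 (SE 0.12, adjusted p = 0.011, limma).

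These 3 calls depended on single arrays. MAOA was not called without WT_PALBO of run 2 (0.43) or run 3 (0.45) or WT_DMSO of run 3 (0.40), with adjusted p of 0.059 to 0.068. SLC6A2 was not called without WT_PALBO of run 1 (0.50) or run 2 (0.53), or WT_DMSO of run 2 (0.58) or run 3 (0.43), with adjusted p of 0.066 to 0.13. GCH1 was not called without WT_PALBO of run 1 (0.52), run 2 (0.63) or run 3 (0.61), or WT_DMSO of run 2 (0.55) or run 3 (0.48), with adjusted p of 0.067 to 0.14. With PALBO, 1 other MAOA probe set gave 0.41 (adjusted p = 0.1, limma over all probe sets), which was not called. The second GCH1 probe set gave 0.55 (adjusted p = 0.066) and was not called either. For SLC6A2, 1 other probe set was called, at 0.8 (adjusted p = 0.032).

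SLC18A2 had 9.56, 9.53 and 8.6 in WT_PALBO, against 9.11, 8.24 and 7.25 in WT_DMSO. It was higher with PALBO in 3 of 3 runs, by 0.45, 1.28 and 1.34. The difference of 1.03 (SE 0.49, adjusted p = 0.28, limma) was called with the run as a block (adjusted p = 0.0017). TH, DDC, DBH and SLC18A1 were not called, at -0.32, 0.18, 0.03 and -0.84. For DBH the 95% confidence interval of the PALBO difference was narrow, -0.11 to 0.17, and for SLC18A1 it was wide, -2.28 to 0.61. With a block for each run within each genotype, an alternative chosen after seeing the data, SLC18A1 was called as lower with PALBO (-0.84, SE 0.24, adjusted p = 0.029), where 16% of all genes were called.

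**Figure D3:**
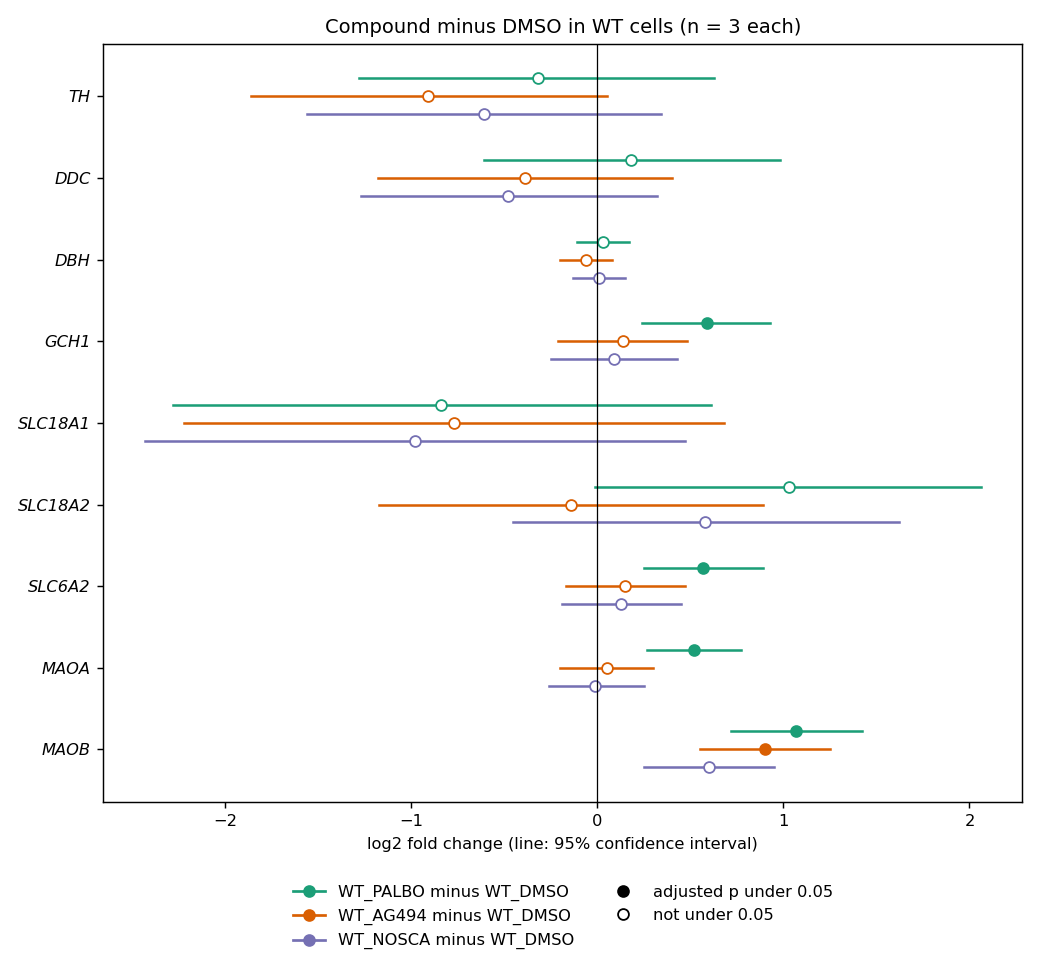
Log2 fold change of each compound over DMSO in wild-type cells (x axis) for the 9 genes (y axis), 3 arrays against 3, with 95% confidence intervals as lines and filled points where the adjusted p is under 0.05. MAOB lies right of 0 for all 3 compounds, at 1.07 for PALBO, 0.90 for AG494 and 0.60 for NOSCA, while TH and SLC18A1 have intervals that span 0 throughout.

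AG494 moved 1 of the 9 genes in wild-type cells, MAOB, which rose, where 0.254% of all genes were called and 0.165% were called higher. MAOB had 8.86, 8.86 and 8.75 in WT_AG494, against 8.0, 8.05 and 7.71 in WT_DMSO. The difference was 0.90 (SE 0.17, adjusted p = 0.023, limma), or 1.87-fold, with 0.85, 0.81 and 1.04 in the 3 runs. Leaving out any 1 of the 6 arrays kept the size, at 0.79 to 0.96, and ended the call, with adjusted p of 0.055 to 0.11. The second MAOB probe set gave 0.42 (SE 0.10, adjusted p = 0.097, limma over all probe sets).

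TH had 8.64, 8.41 and 7.04 in WT_AG494, against 9.61, 9.29 and 7.91 in WT_DMSO. The arrays of the 2 groups overlapped, but within each run TH was lower with AG494 by nearly the same amount, -0.96, -0.88 and -0.87. The difference was -0.91 (SE 0.45, adjusted p = 0.66, limma). With the block for each run within each genotype it had an adjusted p of 0.048, where 2.94% of all genes were called. The other 7 genes were not called in wild-type cells with AG494 under either fit.

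With NOSCA none of the 9 genes was called in wild-type cells by limma, 1 had an unadjusted p under 0.05, and 0.0165% of all genes were called. That gene was MAOB, with 8.94, 8.26 and 8.38 in WT_NOSCA, against 8.0, 8.05 and 7.71 in WT_DMSO. The groups did not overlap, as in 9.72% of all genes, while the runs differed, at 0.94, 0.20 and 0.66. The difference was 0.60 (SE 0.17, adjusted p = 0.34, limma), and with a block for each run within each genotype the adjusted p was 0.028, where 0.993% of all genes were called.

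The compounds were also set against each other in wild-type cells, with no dose known for any of them. MAOA was higher with PALBO than with AG494, by 0.47 (SE 0.12, adjusted p = 0.035, limma), the 1 call among the 9 genes where 3.25% of all genes were called. It was also higher with PALBO than with NOSCA, by 0.52 (SE 0.12, adjusted p = 0.018, limma), again the 1 call, where 3.23% of all genes were called. For MAOB the PALBO and AG494 groups differed by 0.17, with a 95% confidence interval of -0.18 to 0.52 and an adjusted p of 0.85, so that a difference in either direction of that size was not resolved. With the run as a block, GCH1 (0.45), SLC6A2 (0.42) and SLC18A2 (1.17) were called as well in PALBO against AG494, where 8.7% of all genes were called. GCH1 (0.50) and SLC6A2 (0.44) were so in PALBO against NOSCA, where 7.23% of all genes were called. With the block for each run within each genotype, DDC was called too, at 0.57 in PALBO against AG494 (adjusted p = 0.035) and 0.66 in PALBO against NOSCA (adjusted p = 0.018), and MAOB at 0.47 in PALBO against NOSCA (adjusted p = 0.021). In that fit 9.75% of all genes were called in PALBO against AG494 and 8.14% in PALBO against NOSCA. AG494 against NOSCA gave no call among the 9 genes by limma, none at an unadjusted p under 0.05, and 0.011% of all genes. With the block within each genotype SLC18A2 was lower with AG494 than with NOSCA, by -0.72 (adjusted p = 0.048), where 0.176% of all genes were called.

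The MAOA calls between compounds also rested on single arrays. Against AG494, the call was lost without WT_PALBO of run 2 (0.38) or run 3 (0.41) and without WT_AG494 of run 1 (0.42) or run 2 (0.46), with adjusted p of 0.11 to 0.18. Against NOSCA, it was lost without WT_PALBO of run 2 (0.44) or run 3 (0.46) and without WT_NOSCA of run 1 (0.52) or run 3 (0.50), with adjusted p of 0.052 to 0.11.

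In APP cells none of the 9 genes was called with AG494 by limma, 2 had an unadjusted p under 0.05 (SLC6A2 and MAOA), and 4.75% of all genes were called. SLC6A2 had 12.18, 12.22 and 12.13 in APP_AG494, against 11.74, 11.76 and 11.62 in APP_DMSO. The arrays fell into tight, separate groups, with a rise of 0.45, 0.47 and 0.51 in the 3 runs. The difference was 0.47 (SE 0.15, adjusted p = 0.088, limma), and it was called with the run as a block (adjusted p = 0.0041), where 11.8% of all genes were called. Of its other probe sets, 1 was called, at 0.54 (adjusted p = 0.036, limma over all probe sets), and 1 was not, at 0.54 (adjusted p = 0.21).

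TH had 7.52, 7.5 and 7.51 in APP_AG494, against 8.16, 8.05 and 8.04 in APP_DMSO. These 2 groups were far apart for their spread, and TH was lower with AG494 by -0.65, -0.55 and -0.54 in the 3 runs. The difference was -0.58 (SE 0.45), and its adjusted p was 0.63 in the limma fit over all 21 arrays, whose spread for TH comes mainly from wild-type cells. In a fit with these 2 groups alone it was 0.012, where 2.7% of all genes were called.

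DDC had 10.81, 10.61 and 10.7 in APP_AG494, against 11.09, 11.08 and 11.05 in APP_DMSO. The groups did not overlap and the difference was -0.36 (SE 0.38, adjusted p = 0.74, limma), with -0.28, -0.47 and -0.35 in the 3 runs. As for TH, the spread of DDC in that fit comes mainly from wild-type cells. MAOA had 8.98, 9.21 and 9.14 in APP_AG494, against 8.75, 8.88 and 8.92 in APP_DMSO. It too did not overlap, at 0.26 (SE 0.12, adjusted p = 0.3, limma). Arrays did not overlap between APP_AG494 and APP_DMSO for 20% of all genes.

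MAOB, the gene that rose with AG494 in wild-type cells, had 7.47, 6.89 and 7.41 in APP_AG494, against 7.07, 6.96 and 7.03 in APP_DMSO. Run 2 did not go with the others, and the difference was 0.24 (SE 0.17, adjusted p = 0.56, limma). The test of the 2 responses against each other gave an interaction of -0.66 (SE 0.24, 95% confidence interval -1.15 to -0.16, adjusted p = 0.44, limma), which was not called. None of the 9 genes was called for this interaction, 1 had an unadjusted p under 0.05, and 0.0386% of all genes were called.

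SLC18A1, the vesicular transporter of chromaffin and other endocrine cells, had 9.81, 9.21 and 8.9 in APP_AG494, against 9.3, 8.76 and 8.52 in APP_DMSO. In each run it was higher with AG494, by 0.51, 0.44 and 0.38. In wild-type cells it had 9.51, 8.94 and 6.75 in WT_AG494, against 10.27, 9.55 and 7.68 in WT_DMSO. There it was lower in each run, by -0.76, -0.62 and -0.93. The interaction was 1.21 (SE 0.97, adjusted p = 0.89, limma). With NOSCA the runs gave 0.26, 0.21 and 0.14 in APP cells and -1.66, -0.44 and -0.83 in wild-type cells, with an interaction of 1.18 (SE 0.97, adjusted p = 1, limma).

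NOSCA gave no call among the 9 genes in APP cells by limma, none of the 9 had an unadjusted p under 0.05, and 0% of all genes were called. The differences from APP_DMSO ran from -0.12 for GCH1 to 0.53 for SLC18A2. The interaction of NOSCA and genotype gave none as well, with none at an unadjusted p under 0.05 and 0% of all genes called. For MAOB it was -0.46 (SE 0.24, 95% confidence interval -0.96 to 0.03).

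Between the 2 compounds in APP cells, none of the 9 genes was called by limma, 2 had an unadjusted p under 0.05 and 1.56% of all genes were called. With the run as a block, SLC6A2 was higher with AG494 than with NOSCA, by 0.49 (adjusted p = 0.0068), and so was MAOA, by 0.36 (adjusted p = 0.04), where 5.61% of all genes were called. TH differed by -0.56 between these groups without overlap of their arrays, as in 16.6% of all genes (adjusted p = 0.79, limma). In a fit with these 2 groups alone its adjusted p was 0.019, where 0.987% of all genes were called. With the block for each run within each genotype SLC18A2 was lower with AG494 than with NOSCA, by -0.56 (adjusted p = 0.019), where 6.49% of all genes were called.

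The order of the groups differed from gene to gene. MAOB was highest in WT_PALBO at 8.99 ± 0.14 (SD, n = 3 here and below), then in WT_AG494 at 8.82 ± 0.06, WT_NOSCA at 8.53 ± 0.37, WT_DMSO at 7.92 ± 0.18, APP_AG494 at 7.26 ± 0.32, APP_NOSCA at 7.16 ± 0.23 and APP_DMSO at 7.02 ± 0.06. WT_AG494 overlapped with WT_NOSCA, and the 3 APP groups overlapped with each other. MAOA ran from 10.06 ± 0.27 in WT_PALBO over 9.59 ± 0.11 in WT_AG494, 9.54 ± 0.21 in WT_DMSO and 9.53 ± 0.05 in WT_NOSCA to 9.11 ± 0.12 in APP_AG494, 8.85 ± 0.09 in APP_DMSO and 8.75 ± 0.13 in APP_NOSCA. The wild-type groups other than WT_PALBO overlapped, and so did APP_DMSO and APP_NOSCA.

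SLC6A2 was highest in WT_PALBO at 12.81 ± 0.19 and lowest in APP_DMSO at 11.7 ± 0.08 and APP_NOSCA at 11.69 ± 0.05. Between them lay WT_AG494 at 12.39 ± 0.2, WT_NOSCA at 12.37 ± 0.34, WT_DMSO at 12.24 ± 0.28 and APP_AG494 at 12.18 ± 0.05, and the only neighbours whose arrays did not overlap were APP_AG494 and APP_DMSO. GCH1 was highest in WT_PALBO at 11.26 ± 0.11, with no overlap with the next group, WT_AG494 at 10.8 ± 0.28. WT_NOSCA (10.76 ± 0.2), WT_DMSO (10.67 ± 0.27), APP_AG494 (10.56 ± 0.08), APP_DMSO (10.41 ± 0.3) and APP_NOSCA (10.29 ± 0.2) followed, each overlapping with its neighbour.

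SLC18A2 had the reverse order of genotypes. It was highest in APP_NOSCA at 10.14 ± 0.49, followed by APP_DMSO at 9.61 ± 0.43 and APP_AG494 at 9.57 ± 0.5. WT_PALBO at 9.23 ± 0.55, WT_NOSCA at 8.78 ± 0.94, WT_DMSO at 8.2 ± 0.93 and WT_AG494 at 8.06 ± 0.76 came after them. All neighbours in this order overlapped, as they did for TH, DDC and SLC18A1. TH ranged from 8.94 ± 0.9 in WT_DMSO to 7.51 ± 0.01 in APP_AG494, DDC from 11.1 ± 0.33 in WT_PALBO to 10.44 ± 0.65 in WT_NOSCA, and SLC18A1 from 9.3 ± 0.46 in APP_AG494 to 8.19 ± 1.19 in WT_NOSCA. DBH moved least, with group means of 13.32 ± 0.04 in WT_PALBO to 12.98 ± 0.08 in APP_DMSO, and its only gap was between WT_AG494 at 13.23 ± 0.06 and APP_AG494 at 13.09 ± 0.05.

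The spread between arrays of a group separated the genes too. For TH the SD within groups was 0.06 in APP cells and 0.83 in wild-type cells, and for DDC it was 0.07 in APP cells and 0.69 in wild-type cells. SLC18A1 had 0.44 and 1.22 and SLC18A2 0.47 and 0.81 in APP and wild-type cells. Over all genes the median was 0.13 in both lines. In run 3 SLC18A1 was between 6.75 and 7.68 in the 4 wild-type arrays, against 8.46 to 10.27 in run 1 and 8.94 to 9.55 in run 2, while the APP arrays of the same run were between 8.52 and 8.9. SLC6A2 had 0.06 and 0.26 and MAOA 0.11 and 0.18 in APP and wild-type cells. GCH1, with 0.21 and 0.22, MAOB, with 0.23 and 0.22, and DBH, with 0.07 and 0.05, were closer between the lines. The difference in spread was not tested.

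**Figure D4:**
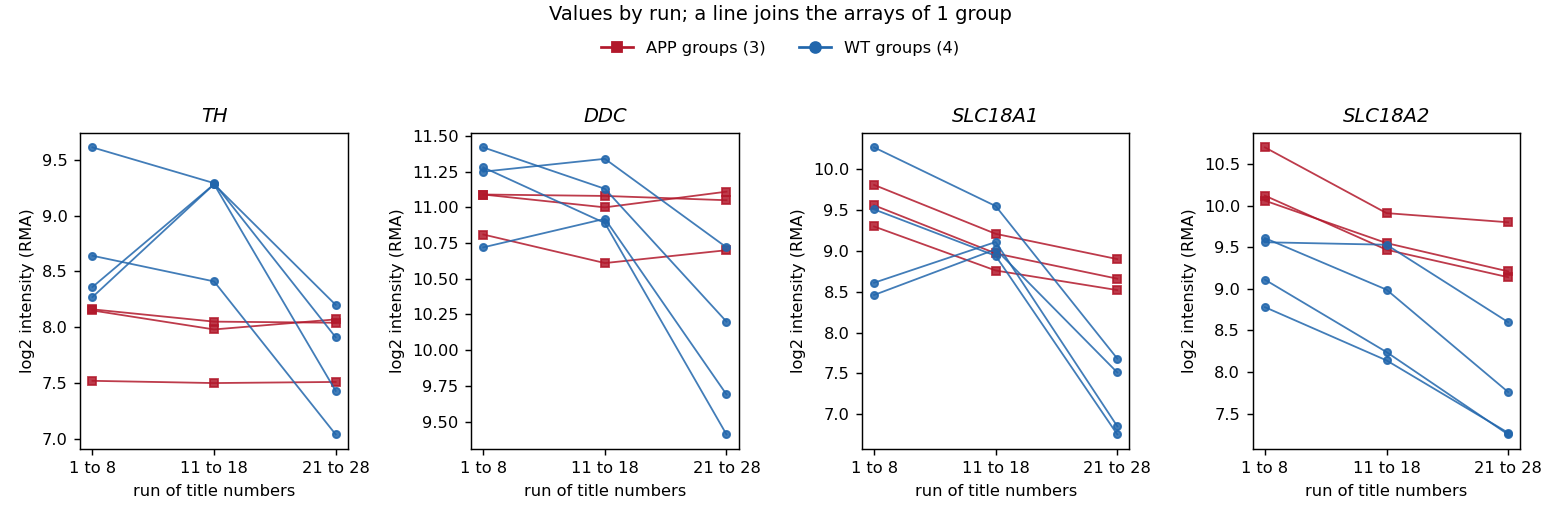
Log2 RMA intensity (y axes) of TH, DDC, SLC18A1 and SLC18A2 by run of title numbers (x axes), with red lines for the 3 APP groups and blue lines for the 4 wild-type groups, each joining the arrays of 1 group. The wild-type lines are low in run 3 (title numbers 21 to 28), where SLC18A1 lies between 6.75 and 7.68, while the APP lines of TH and DDC stay level.

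Within groups, the 9 genes deviated together in part. Of their 36 pairs, 19 had a Pearson's r over 0.5 over the 21 arrays after subtraction of the group means, and 5, all with MAOA, were below 0. The highest values were 0.947 for DDC and SLC18A1, 0.926 for TH and SLC18A1 and 0.918 for TH and DDC, and the lowest was -0.26 for MAOA and MAOB. For MAOA and MAOB r without that subtraction was 0.85, and for SLC6A2 and GCH1 it was 0.879 over all arrays and 0.596 within groups. These values describe arrays that share groups and runs and carry no test.

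The genes most like each member were found by r over the 21 arrays without that subtraction, so that differences between group means enter it. After subtraction, r was 0.26 to 0.712 for the 3 genes most like MAOB, 0.506 to 0.648 for those of MAOA and 0.626 to 0.769 for those of DBH. It was 0.717 to 0.901 for those of SLC6A2 and 0.78 to 0.966 for those of GCH1. For TH they were ANKRD37 (r = 0.861), ALDOC (r = 0.855) and HK2 (r = 0.854). ALDOC and HK2 encode the glycolytic enzymes aldolase C and hexokinase 2. In run 3 ALDOC lay between 8.47 and 9.36 in wild-type arrays, against 9.43 to 11.0 in run 1. For DDC they were RTL1 (r = 0.886), DLK1 (r = 0.864) and BEGAIN (r = 0.846), which lie next to each other on chromosome 14, where DLK1 and RTL1 are imprinted genes. DLK1 was also among the 3 most like SLC18A1 (r = 0.844), after ZNF160 (r = 0.873) and MMADHC (r = 0.854).

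For MAOB the 3 were MARCHF11 (r = 0.956), DGLUCY (r = 0.954) and COLEC11 (r = 0.932), and for MAOA SLC8A2 (r = 0.937), a sodium-calcium exchanger, OLFM2 (r = 0.922) and KLHDC9 (r = 0.919). SLC6A2 was most like ZNF792 (r = 0.955), ASTN2 (r = 0.941) and BLCAP (r = 0.938), and GCH1 most like XYLT1 (r = 0.957), CREG1 (r = 0.928) and PPP1R16B (r = 0.913). DBH was most like FAM163B (r = 0.946), which like DBH lies on chromosome 9, and then DUSP2 (r = 0.927) and MMP2 (r = 0.921). SLC18A2 was most like DNAJA1 (r = 0.937), SIRT5 (r = 0.911) and SH3BGRL2 (r = 0.879).

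Lists of related genes, chosen by name with earlier results of these data known, give the setting of these changes. In APP_DMSO against WT_DMSO, 2 of the 6 measured genes of tetrahydrobiopterin synthesis and recycling rose, where 5.2% of all genes were called higher. They were QDPR, which regenerates the cofactor (0.44, SE 0.06, adjusted p = 4.9e-05, limma), and PCBD1, which acts with it (0.39, SE 0.06, adjusted p = 0.00022). Both rose under AG494 and NOSCA as well, at 0.45 and 0.46 for QDPR and 0.25 and 0.33 for PCBD1, where 4.1% and 3.56% of all genes were called higher. Under AG494 GCHFR, the feedback regulator of GCH1, fell by 0.38 (SE 0.09, adjusted p = 0.011, limma). Of all genes 4.92% were called lower there. With PALBO in wild-type cells QDPR rose by 0.22 (SE 0.06, adjusted p = 0.03) and SPR, the last enzyme of cofactor synthesis, fell by 0.51 (SE 0.10, adjusted p = 0.004), beside the rise of GCH1, where 3.11% of all genes were called higher and 3.87% lower.

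Of 5 other genes measured, enzymes of monoamine synthesis or relatives of such enzymes, 2 rose in APP_DMSO, where 5.2% of all genes were called higher. MOXD1, a relative of DBH, averaged 9.6 ± 0.34 in APP_DMSO and 7.44 ± 0.49 in WT_DMSO (SD, n = 3 each), a difference of 2.16 (SE 0.35, adjusted p = 0.00033, limma). Its sign was opposite to that of DBH under all 3 treatments, with 1.98 under AG494 and 1.98 under NOSCA. PNMT, which makes adrenaline, rose by 0.39 (SE 0.11, adjusted p = 0.029, limma). No member of the lists of other amine transporters (6 measured), other breakdown enzymes (6 measured, none of the 9 genes among them) or catecholamine receptors (13 measured) was called in APP_DMSO against WT_DMSO, in WT_PALBO against WT_DMSO or in either AG494 comparison with DMSO.

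Of 8 measured genes of the secretory granule and of cofactor supply, 3 rose in APP_DMSO, CHGA by 0.59, CHGB by 0.63 and the amino acid carrier SLC7A5 by 0.48, and none fell, where 5.2% of all genes were called higher. In WT_PALBO 4 rose, CHGA by 0.49, CHGB by 0.68, SCG2 by 0.52 and SLC7A5 by 0.49, where 3.11% of all genes were called higher. In APP_AG494 against APP_DMSO SCG2 rose by 0.42 and TMEM163, a zinc transporter of vesicles, fell by 0.77, where 1.99% of all genes were called higher and 2.76% lower. CHGA and CHGB are chromogranins, proteins of the granules that store catecholamines. The chromogranins were higher in both comparisons, which share the WT_DMSO arrays, while MAOB, MAOA and SLC6A2 had opposite signs in them.

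Among 8 measured transcription factors of noradrenergic cells, INSM1 rose by 1.71 in APP_DMSO (SE 0.26, adjusted p = 0.00015, limma), and TBX2 and TFAP2B fell by 0.77 and 0.34, where 5.2% of all genes were called higher and 4.05% lower. In APP_AG494 against APP_DMSO, INSM1 fell by 2.76 (SE 0.26, adjusted p = 6.6e-06, limma) and TBX2 rose by 0.59 (adjusted p = 0.0085), where 2.76% of all genes were called lower and 1.99% higher. In WT_PALBO ISL1 rose by 0.43 (adjusted p = 0.0036), where 3.11% were called higher. Among 8 genes known as regulators of the oxidase promoters, EGR1 fell by 0.90 in APP_DMSO (SE 0.19, adjusted p = 0.0047, limma), and KLF11 rose by 0.44 (adjusted p = 0.047). EGR1 was also lower under AG494 and NOSCA, at -1.28 and -1.35, where 4.92% and 3.65% of all genes were called lower. In WT_PALBO EGR1 rose by 0.67 (adjusted p = 0.043), and CDCA7L, a repressor of MAOA, and SP1 fell by 0.51 and 0.34. Of all genes 3.87% were called lower in WT_PALBO. In APP_AG494 against APP_DMSO CDCA7L fell by 0.26 (adjusted p = 0.045). In WT_AG494 against WT_DMSO, where MAOB was called higher, none of these 8 regulators was called. A link between the regulators and the oxidase genes was not tested.

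Some markers of other cell types were called in APP_DMSO and in WT_PALBO, each against WT_DMSO. In APP_DMSO 5.2% of all genes were called higher and 4.05% lower, and in WT_PALBO 3.11% higher and 3.87% lower. Of 6 mesenchymal markers, COL1A1, SNAI2 and VIM were lower in APP_DMSO (-1.19, -1.15 and -0.36), and COL1A1, FN1 and VIM were lower in WT_PALBO (-0.88, -0.43 and -0.41). The mean of the 6 ran from 8.54 to 8.57 in APP_DMSO and from 8.43 to 8.71 in WT_PALBO, against 8.9 to 9.16 in WT_DMSO. The glial marker S100B fell by 1.01 in APP_DMSO and rose by 0.95 in WT_PALBO, and the mean of the 3 glial markers measured ran from 7.26 to 7.51 in APP_DMSO and from 8.08 to 8.23 in WT_PALBO, against 7.8 to 7.88 in WT_DMSO. Of 3 serotonergic markers the transcription factor FEV rose in both, by 0.66 in APP_DMSO and 0.90 in WT_PALBO, and the mean of the 3 ran from 6.88 to 6.92 in APP_DMSO and from 6.97 to 7.05 in WT_PALBO, against 6.59 to 6.85 in WT_DMSO. Of the 7 noradrenergic markers, CHGA rose in APP_DMSO and CHGA and ISL1 rose in WT_PALBO, and their mean ran from 12.24 to 12.36 in APP_DMSO and from 12.34 to 12.49 in WT_PALBO, against 12.23 to 12.29 in WT_DMSO. No cholinergic, midbrain dopaminergic or immune marker was called in either comparison. In APP_AG494 the immune marker CD68 rose by 0.52 against APP_DMSO and by 0.45 against WT_AG494. Of all genes 1.99% and 4.1% were called higher there. The part of these markers in the differences of the 9 genes was not tested.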

How the data were processed

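RNA of 21 cultures was measured on Affymetrix PrimeView arrays, 1 culture each, with 3 arrays in each of 7 groups taken from the labels. The deposited log2 intensities were made by the authors with affy's RMA, as the submitters' processing notes state. Versions are not given in the sources used here. Values ran from 4.143 to 14.37. Precision is limited by the number of arrays. Probe sets were named through the platform annotation and RefSeq: of 49372, 44988 had 1 gene symbol, 1832 had several, 2473 were not listed and 79 were controls. Of those with 1 symbol, 44961 matched RefSeq, which gave 18132 genes, each represented by its brightest probe set.

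All 14 comparisons came from 1 limma 3.58.1 fit (R 4.3.3) over 21 arrays with 1 mean per group and two-sided moderated tests. P-values were adjusted by Benjamini-Hochberg over all genes, and the confidence level was 95%. On simulated data for APP_DMSO against WT_DMSO (18132 genes), the fit recovered 68% of 50 genes changed by 0.5 and 98% of 50 changed by 1, with 14 false calls. The simulated arrays were independent, with no effect of the run and the same spread of a gene in both lines. The real arrays differ in both respects, so that these rates need not hold for them. Residuals of same-run arrays correlated at 0.226 to 0.685 (63 pairs), against -0.529 to 0.0889 for arrays of another run and group (126 pairs), so that the runs of title numbers were taken as pairing the samples. The 9 genes, the related lists and the tests were chosen with earlier results of these data known. Named beyond the 9 genes were called genes of the lists, at most 4 per list and comparison by lowest p, the 3 genes most correlated with each member, and APP. Other markers were named after their values were seen. Alternatives were the replicate block, array weights, another normalization or centring, the choice and filter of probe sets, the prior, the groups in the fit and leaving out each array. The block within each genotype and the fit on runs 1 and 2 were added after seeing the data. Figures were drawn with matplotlib 3.10.9.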

Additional observations from a re-analysis of the deposited data

How the results depend on the processing

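Among the 17 differences called for the 9 genes, no sign turned under any alternative. All 17 calls were kept with quantile normalization again, array weights, averaged probe sets, a trended and robust prior, without the dimmest 33.3% of genes and with the replicate block. With only the groups of a comparison in the fit 9 of them were lost, and with title numbers 1 to 18 only 8 were. Centring on array medians and testing all probe sets each ended 1, DBH in APP_NOSCA against WT_NOSCA (-0.23, adjusted p = 0.051, and -0.22, adjusted p = 0.066). The counts of the 9 genes called moved with the fit, and the cause was not tested. With the replicate block (run of title numbers) there were 4 in APP_AG494 against WT_AG494, 1 in APP_AG494 against APP_DMSO, 4 in WT_PALBO against WT_AG494, 3 in WT_PALBO against WT_NOSCA and 2 in APP_AG494 against APP_NOSCA. In the same order, 16.9%, 11.8%, 8.7%, 7.23% and 5.61% of all genes were called. With the block within each genotype, the counts were 2, 1 and 6 for WT_AG494, WT_NOSCA and WT_PALBO against WT_DMSO and 1 for APP_AG494 against APP_DMSO. The shares of all genes called there were 2.94%, 0.993%, 16% and 12.9%. In that fit the counts were 5, 5, 1 and 3 for WT_PALBO against WT_AG494, WT_PALBO against WT_NOSCA, WT_AG494 against WT_NOSCA and APP_AG494 against APP_NOSCA. The shares of all genes were 9.75%, 8.14%, 0.176% and 6.49%. With array weights the counts were 1 in APP_AG494 against APP_DMSO and 3 in WT_PALBO against WT_AG494. No share of all genes is given here for array weights. With only the groups of a comparison in the fit, which leaves fewer arrays to estimate the spread, the counts were 2 in APP_DMSO against WT_DMSO, 0 in WT_AG494 against WT_DMSO, 1 in WT_PALBO against WT_DMSO, 2 in APP_AG494 against APP_DMSO, 0 in both WT_PALBO comparisons with another compound and 2 in APP_AG494 against APP_NOSCA. In the same order, 4.89%, 0%, 2.86%, 2.7%, 1.62% (AG494), 1.58% (NOSCA) and 0.987% of all genes were called. No gene at all was called there in WT_AG494 against WT_DMSO, so that its count of 0 is not particular to the 9 genes. With title numbers 1 to 18 only, which leaves 2 arrays a group, the counts were 1 in APP_AG494 against WT_AG494, 0 in WT_AG494 against WT_DMSO, 1 in WT_PALBO against WT_DMSO and 0 in both WT_PALBO comparisons with another compound. The shares of all genes were 6.54%, 0.0496%, 4.17%, 1.31% (AG494) and 0.871% (NOSCA), in that order. Smaller moves of the counts are not all listed. SLC18A2 was also called with array weights in APP_DMSO against WT_DMSO (1.59, adjusted p = 0.024, limma) and in APP_AG494 against WT_AG494 (1.45, adjusted p = 0.026). With only the groups of the comparison it was called under AG494 (1.51, adjusted p = 0.037). Without WT_DMSO of run 1 it was called under vehicle (1.86, adjusted p = 0.034), and without WT_AG494 of run 1 under AG494 (1.87, adjusted p = 0.046).

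Leaving out 1 array at a time gave 3 to 4 called in APP_DMSO, 1 to 3 in APP_AG494 and 2 to 4 in APP_NOSCA, each against wild-type cells with the same treatment. It gave 0 in WT_AG494 and 1 to 4 in WT_PALBO against WT_DMSO, 0 to 1 in WT_PALBO against WT_AG494 and 0 to 2 in WT_PALBO against WT_NOSCA. A group with 2 arrays left shared the spread of the other groups. Shares of all genes called are not given for these fits. The lowest counts came without APP_AG494 of run 1 or WT_AG494 of run 3 (1 each), WT_NOSCA of run 1 (2), and WT_PALBO of run 2 or WT_DMSO of run 3 (1 each). TH, DDC, SLC18A1 and SLC18A2 had SEs of 0.45, 0.38, 0.69 and 0.49 in the main fit. With the run as a block these SEs were 0.35, 0.28, 0.39 and 0.2. With the block within each genotype they were 0.23, 0.16, 0.24 and 0.13 for comparisons within a genotype. What could be shown for these genes was thus limited by the fit as well as by 3 arrays a group.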
